A study of Mus musculus with 6 samples.

Results

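The actin isoforms described here are the 6 genes Actc1, Acta1, Acta2, Actg2, Actb and Actg1, taken by symbol from the 27998 genes of the count tables. Together they held 1136066 UMIs (unique molecular identifiers, each of which marks 1 captured RNA molecule) in left ventricular cardiomyocytes (CMs). The data are droplet-based scRNA-seq of C57BL/6J mice at embryonic day 16.5 (E16.5) and at postnatal days 1 and 5 (P1 and P5). Ventricular cells had been fixed in methanol and sorted by FACS on the CM marker MYH1 and on DNA content by Hoechst into diploid (2n) and tetraploid (4n) CMs, and each library pools the cells of 3 sorts. Each age and ploidy gave 1 library, written E16.5-2n, E16.5-4n and so on, 6 in all, and the labels name no genetic change or treatment. Where 6 values follow each other, the order is E16.5-2n and 4n, P1-2n and 4n, then P5-2n and 4n. The age label of the E16.5-4n library reads 16.6 days, whereas its title says E16.5. With 1 library per condition, no difference between ages or ploidies could be tested against the spread between animals, and what belongs to a library cannot be told apart from what belongs to its condition. The intervals given are exact 95% intervals for counting error alone.

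Actins are small globular proteins that polymerise into filaments. The striated muscle forms, cardiac alpha-actin (Actc1) and skeletal alpha-actin (Acta1), build the thin filaments of the sarcomere, on which myosin pulls. The smooth muscle forms (Acta2 and Actg2) serve contraction in vessels and gut, and the cytoplasmic forms (Actb and Actg1) build the cell cortex, stress fibres and the ring that closes at cytokinesis. The embryonic heart is known to express Actc1 together with Acta1 and Acta2, and Acta1 is a classical gene of the fetal programme that returns under load. Muscle actin genes are textbook targets of serum response factor (SRF), which binds the CArG box.

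The 6 coding sequences are alike, with 81.5% to 88.7% identity between pairs, the highest for Actb and Actg1 and 86.2% for Actc1 and Acta1. The start of the coding sequence shows how the isoforms are told apart, since actins differ most in their first residues. In the lines below, from GENCODE transcripts of GRCm38 (release vM21), capitals mark bases that differ from Actc1 after alignment.
Actc1: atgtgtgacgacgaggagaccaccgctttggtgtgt
Acta1: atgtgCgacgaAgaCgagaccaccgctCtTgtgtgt
Acta2: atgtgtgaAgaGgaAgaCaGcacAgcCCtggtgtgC
Actg2: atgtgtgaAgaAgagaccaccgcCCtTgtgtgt
Actb: atggaTgaCgaTaTcGcTgcGCtggtCGTC
Actg1: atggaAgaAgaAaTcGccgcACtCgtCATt
Acta1 and Acta2 differ from Actc1 at 5 and 9 of these 36 bases. Actg2 is 3 bases shorter there and differs at 5 bases, whereas Actb and Actg1 are 6 bases shorter and differ at 12 and 11. The proteins have 377 residues for Actc1, Acta1 and Acta2, 376 for Actg2, and 375 for Actb and Actg1.

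The libraries were read from the 3′ end of the RNA, where the isoforms are less alike. Their 3′ untranslated regions share 10.1% to 45.5% of aligned positions between pairs, with gaps counted as differences. Lengths from 80 (Actg2) to 700 bases (Actg1) lower the values of unequal pairs. Actb and Actg1, of like length (683 and 700 bases), share 45.4%. In the last 500 bases of the transcripts, no stretch of 100 bases of any of the 6 genes was found in a transcript of another gene. Over the whole transcript, 51.1% of the stretches of Actg1 are shared with pseudogenes such as Actg-ps1, none of them within those last 500 bases. Any reads from the shared stretches may not map to Actg1 alone, and only confidently mapped reads were counted.

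On GRCm38 all 6 genes lie on the minus strand of different chromosomes. Actc1 (ENSMUSG00000068614) spans chr2:114047282-114053548 and Acta1 (ENSMUSG00000031972) chr8:123891769-123894751, each with 7 exons. Acta2 (ENSMUSG00000035783) spans chr19:34241090-34255590 and Actg2 (ENSMUSG00000059430) chr6:83512905-83536265, each with 9 exons. Actb (ENSMUSG00000029580) spans chr5:142903115-142906754 and Actg1 (ENSMUSG00000062825) chr11:120345690-120348542, each with 6 exons.

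Promoters of 4 of the 6 members were matched in RefSeq (GRCm38.p6), which excludes Actb and Actg2. They are shown because 3 of the 4, Actc1, Acta1 and Actg1, hold a CArG box in the 250 bases before their start site, against 1.47% of 32851 promoters. The box was searched on both strands. Each line gives 30 bases with the box in capitals.
Actc1 (chr2:114052903-114052932, minus strand, box from -47): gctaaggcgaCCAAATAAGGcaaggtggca
Acta1 (chr8:123894829-123894858, minus strand, box from -73): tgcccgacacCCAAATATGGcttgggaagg
Actg1 (chr11:120348566-120348595, minus strand, box from -90): ggaaagatcgCCATATATGGacatgttctg
Acta2 (chr19:34255438-34255467, minus strand, box from -84): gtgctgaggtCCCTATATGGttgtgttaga
The box of Acta2 was found only when 1 core base of G or C was allowed, which 8.59% of promoters hold, and it lies in an annotated exon of another transcript. These matches describe letters in a window and not the binding of a factor.

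The deposited cells numbered 31156, of which 30797 had at least 1 UMI of each of Tnni3, Tnnt2 and Tnnc1, genes of the cardiac troponin complex, and were taken as CMs. The 4 markers of the study include Actc1, which was left out of the filter since it is a member. The libraries held 3661 to 7374 CMs with 13075770 to 19673407 UMIs and medians of 1826 (P1-2n) to 4652 (P5-4n) UMIs per CM. All 12 CM markers had UMIs in every library, with a summed level of 42344 to 58220 UMIs per 1000000 UMIs of the library (CPM). Markers of other cell types had UMIs as well. The 9 fibroblast markers summed to 144 and 828 CPM at E16.5, 154 and 989 CPM at P1, and 291 and 386 CPM at P5, in each case 2n before 4n. The 8 endothelial markers summed to 31.2 to 142 CPM, the 9 mural markers to 132 to 225 CPM, the 6 erythroid markers to 1651 to 10329.6 CPM, the 9 immune markers to 10.1 to 39.4 CPM, and the 5 epicardial markers to 2.61 to 14.9 CPM. Single genes held much of the mural sum: Cnn1 76.4 of 182 CPM in E16.5-2n and Abcc9 89.5 of 135 CPM in P1-2n CMs. How much of the mural list came from other cells and how much from CMs was not tested. In E16.5-2n CMs the immune marker Ptprc and the epicardial markers Upk1b and Lrrn4 were at 0. CMs with at least 3 UMIs of any of the mural, fibroblast, endothelial, epicardial, immune or skeletal muscle lists, called marker-rich, made up 5.01% of 2n and 22.3% of 4n CMs at E16.5. They made up 2.997% of 2n and 33.6% of 4n CMs at P1, and 7.10% of 2n and 13.9% of 4n CMs at P5. No doublet caller was run and no cell was removed as a doublet. Barcodes numbering 499 occurred in more than 1 library, in 1003 cells.

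Actin made up 1.51% of all UMIs of E16.5-2n CMs (15089 CPM) and 1.204% of those of E16.5-4n CMs (12044 CPM). At P1 the share was 1.03% in 2n (10319.5 CPM) and 1.01% in 4n CMs (10068 CPM), and at P5 it was 1.11% (11069.6 CPM) and 1.04% (10382 CPM). E16.5 CMs thus gave the largest share of their UMIs to actin, and the 4 postnatal libraries lay close together. Mitochondrial genes held 8.28% and 8.16% of CM UMIs at E16.5 and 16.3% to 18.0% after birth, and they are part of each total. Scaling by the median of ratios shifts every log2 ratio from E16.5-4n by 0.33 to P1-4n and 0.53 to P5-4n CMs. It shifts those from E16.5-2n by 0.34 to P1-2n and 0.45 to P5-2n CMs. The place of E16.5-4n above these 4n libraries, and that of E16.5-2n above P5-2n CMs, thus depends on the scaling. In each library Actc1 dominated, and the isoforms that changed places were the minor ones.

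At E16.5 Actc1 held 82.5% of the actin UMIs of 2n and 75.8% of those of 4n CMs, and 86.0% to 89.9% in the postnatal libraries. The smooth muscle actins, almost wholly Acta2, held 11.7% and 12.1% at E16.5 and 5.72% to 6.50% after birth. The cytoplasmic actins held 4.70% at E16.5 in 2n but 11.4% in 4n CMs, 3.74% and 7.58% at P1, and 3.28% and 3.97% at P5. At each age the cytoplasmic share was larger in 4n than in 2n CMs, with the smallest gap at P5.

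**Figure D1:**
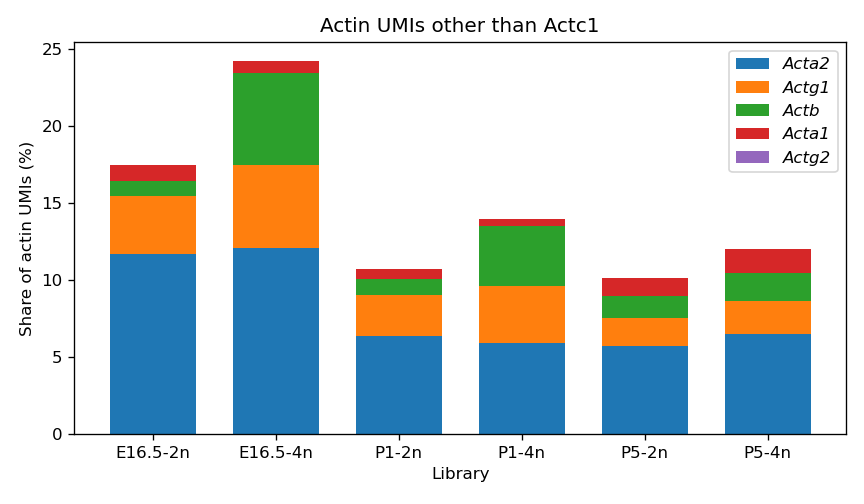
Share of actin UMIs in percent (vertical axis, from 0) held by each isoform other than Actc1, stacked for each of the 6 libraries (horizontal axis). Acta2 is the largest piece in every library, at 12.1% in E16.5-4n and 5.72% in P5-2n CMs, and Actb and Actg1 together reach 11.4% in E16.5-4n CMs.

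Actc1, the main actin of the cardiac sarcomere, was at 12453 CPM in 2n and 9124 CPM in 4n CMs of E16.5. At P1 these levels were 9214 and 8658 CPM, and at P5 they were 9947 and 9132 CPM. It ranked 4 and 6 among all genes at E16.5 and 10 to 11 at P1 and P5. E16.5-2n CMs stood above the rest, and the intervals of E16.5-4n (9072 to 9176 CPM), P5-4n (9089 to 9176 CPM) and P1-2n CMs (9167 to 9260 CPM) overlapped. The log2 ratio was -0.43 from E16.5-2n to P1-2n and -0.08 from E16.5-4n to P1-4n CMs, and 0.11 and 0.08 from P1 to P5. Of the 5 members with enough UMIs to compare, Actc1 was the steadiest, with 0 comparisons past a fold of 2. With a scaling by the median of ratios, which sets the typical gene to no change and shifted every log2 ratio between ages by 0.10 to 0.53, the ratio from E16.5-4n to P1-4n CMs turned to 0.25 and that from E16.5-2n to P5-2n CMs turned from -0.32 to 0.13.

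Acta1, the skeletal alpha-actin that the fetal heart also uses, was a minor transcript with a clear course in age. It was measured at 156 CPM (interval 150 to 162) in E16.5-2n, 88.9 CPM (83.9 to 94.2) in E16.5-4n and 64.1 CPM (60.3 to 68.1) in P1-2n CMs. It was at 47.1 CPM (44.1 to 50.2) in P1-4n, 125 CPM (120.3 to 131) in P5-2n and 163 CPM (157 to 169) in P5-4n CMs. Both P1 libraries were thus the lowest, and the highest levels, in P5-4n and E16.5-2n CMs, had overlapping intervals. The share of actin UMIs that were Acta1 was 1.03%, 0.738%, 0.621%, 0.467%, 1.13% and 1.57% in the same order of libraries.

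Between E16.5-2n and P1-2n CMs Acta1 was 2.43-fold lower (log2 ratio -1.28, -1.39 to -1.18), and between E16.5-4n and P1-4n CMs it was 1.89-fold lower (-0.92, -1.04 to -0.79). Over the same steps the median gene was at -0.33 and -0.30, so that Acta1 lay well below it. From P1 to P5 Acta1 was 1.96-fold higher in 2n (0.97, 0.86 to 1.08) and 3.46-fold higher in 4n CMs (1.79, 1.68 to 1.90). Over these steps the median gene was at -0.09 and -0.16. Acta1 was lower in 4n than in 2n CMs at E16.5 (log2 ratio -0.81, -0.91 to -0.71) and P1 (-0.45, -0.57 to -0.32), and higher at P5 (0.37, 0.30 to 0.45).

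Markers of skeletal muscle, a tissue that expresses Acta1, summed to 25.9 and 24.8 CPM at E16.5, 11.3 and 9.51 CPM at P1, and 7.14 and 5.38 CPM at P5, with UMIs of 4 or 5 of the 7 genes in each library. Myod1 and Myf5 were at 0 in all 6 libraries, whereas Myog was at 0.479 and 0.688 CPM at E16.5 and at 0 to 0.305 CPM after birth. The highest of the list at E16.5 were Tnni2 (15.5 and 15.0 CPM) and Mylpf (8.07 and 7.19 CPM). In the 15 E16.5-2n and 11 E16.5-4n CMs with at least 3 UMIs of this list Acta1 was at 312 CPM and 450 CPM. Acta1 was also higher in CMs with at least 3 UMIs of the mural list, a list of smooth muscle and pericyte genes, than in all CMs at E16.5 and P1, at 545 and 146 CPM at E16.5 and 205 and 63.1 CPM at P1, but not at P5 (108 and 119 CPM). In CMs with 0 UMIs of the mural list it was at 120.2, 81.2, 57.6, 43.3, 123 and 159 CPM in the order of the libraries, again lowest at P1. The part of either list in Acta1 was not tested. In cells that failed the CM filter Acta1 was at 0 to 47.7 CPM, on 0 to 5 UMIs per library. Without marker-rich cells Acta1 was at 136, 88.7, 61.2, 44.7, 128 and 169.5 CPM in the order of the libraries. The P1 libraries stayed the lowest, and P5-4n CMs then stood highest. The log2 ratio from E16.5-2n to P5-2n CMs went from -0.31 to -0.09. This move came with the mural list. When that list was not used to define marker-rich cells, a choice made after seeing the data, the ratio was -0.32, with 159 CPM in E16.5-2n CMs.

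**Figure D2:**
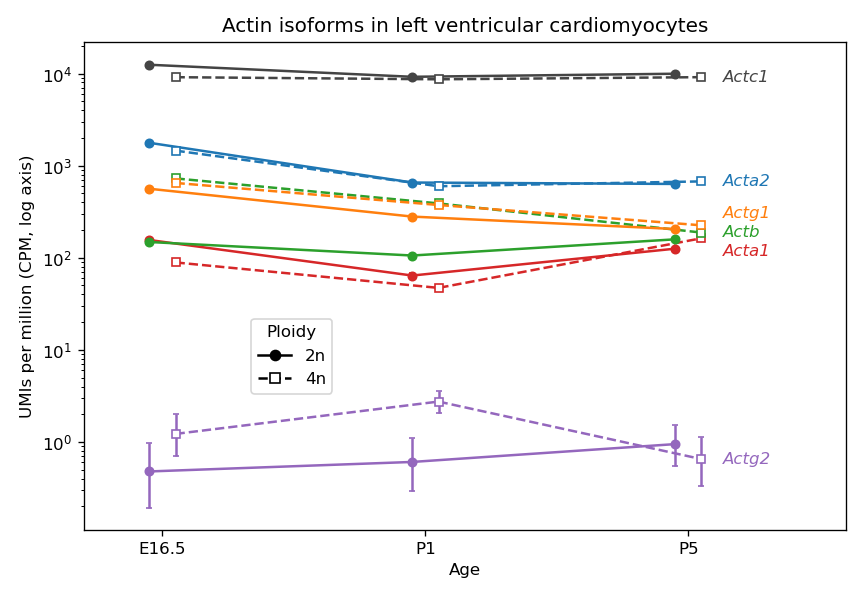
Level of each actin gene in CPM (vertical axis, log scale) by age (horizontal axis), with filled circles and full lines for 2n and open squares and dashed lines for 4n CMs, 1 library per point. Acta1 is lowest at P1 in both ploidies (64.1 and 47.1 CPM), Acta2 is lower at P1 and P5 than at E16.5, and Actb lies higher in 4n than in 2n CMs, with 727 against 148 CPM at E16.5.

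Acta2, smooth muscle alpha-actin, was the main actin after Actc1 in every library. It was at 1770.1 CPM (1749 to 1792) in E16.5-2n and 1455 CPM (1434 to 1476) in E16.5-4n CMs. After birth the levels of 2n and 4n CMs were 656 and 598 CPM at P1, then 633 and 674 CPM at P5. Both libraries of E16.5 thus stood apart from the 4 postnatal ones, which differed from each other by little. The log2 ratio from E16.5 to P1 was -1.43 (-1.47 to -1.40) in 2n and -1.28 (-1.32 to -1.25) in 4n CMs, and from P1 to P5 it was -0.05 and 0.17. The small negative value from P1-2n to P5-2n turned to 0.05 with the median of ratios. Between ploidies Acta2 was at log2 ratios of -0.28 at E16.5, -0.13 at P1 and 0.09 at P5.

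Acta2 also marks smooth muscle and mural cells. Of the 9 mural genes, all had UMIs in each library, and the list summed to 182 and 195 CPM at E16.5, 135 and 225 CPM at P1, and 132 and 139 CPM at P5. Members of the list took different courses. Cnn1, smooth muscle calponin, went from 76.4 and 54.9 CPM at E16.5 to 7.22 and 6.10 CPM at P1, Mcam from 46.3 and 51.2 CPM to 15.4 and 30.1 CPM, and Cspg4 from 16.3 and 16.2 CPM to 7.59 and 8.74 CPM, as Acta2 also did, whereas Abcc9 and Rgs5 were higher at P1. Myh11, the myosin of smooth muscle, was at 0.459 to 3.56 CPM in all 6 libraries. The part of mural RNA in Acta2 was not tested. In CMs with 0 UMIs of the mural list Acta2 was at 1657, 1405, 652, 575, 605 and 646 CPM in the order of the libraries, nearly the level in all CMs. In cells that failed the CM filter it was at 203 to 1096 CPM.

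Actg2, the gamma-actin of enteric smooth muscle, was close to absent. It had 7, 16, 10, 54, 17 and 12 UMIs in the 6 libraries, or 0.479 to 2.74 CPM, and no comparison reached the 100 UMIs in both libraries together that were asked for. The highest level was that of P1-4n CMs, with 2.74 CPM (2.06 to 3.58), the library with the highest mural sum (225 CPM), and the part of mural RNA in it was not tested.

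Actb, cytoplasmic beta-actin, differed most between ploidies at E16.5 and P1 among the 5 members with enough UMIs. At P5 Acta1 differed more (log2 ratio 0.37 against 0.24). Actb levels were as follows. Actb was at 148 CPM (142 to 155) in E16.5-2n and 727 CPM (712 to 741) in E16.5-4n CMs. At P1 it was at 106 CPM (101 to 111) in 2n and 389 CPM (380.4 to 398) in 4n, and at P5 at 158 CPM (153 to 164) and 188 CPM (181 to 194). The 4n level was 4.90-fold the 2n level at E16.5 (log2 ratio 2.29, 2.23 to 2.36), 3.68-fold at P1 (1.88, 1.80 to 1.96) and 1.18-fold at P5 (0.24, 0.17 to 0.32). From E16.5 to P1 the log2 ratio was -0.49 in 2n and -0.90 in 4n CMs, and from P1 to P5 it was 0.58 and -1.05.

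The level of Actb was set beside markers of other cell types. The libraries with high Actb, E16.5-4n and P1-4n, were also those with the highest fibroblast sums (828 and 989 CPM of 9 genes) and the most marker-rich CMs (22.3% and 33.6%). Between them, P1-4n CMs had the higher fibroblast sum but the lower Actb (389 against 727 CPM). From E16.5-2n to P5-2n CMs the fibroblast sum went from 144 to 291 CPM, with Actb at 148 and 158 CPM. The part of other cells in Actb was not tested. In the 91 E16.5-2n CMs with at least 3 fibroblast UMIs Actb was at 872 CPM, and in the 805 such E16.5-4n CMs it was at 1589.9 CPM. In cells that failed the CM filter it was at 668 to 3098 CPM.

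Without marker-rich cells Actb was at 120 CPM and 457 CPM at E16.5, 82.5 CPM and 173 CPM at P1, and 83.1 CPM and 102 CPM at P5, 2n before 4n. The log2 ratio of 4n to 2n was then 1.93, 1.07 and 0.29. In CMs with 0 UMIs of the fibroblast, endothelial, epicardial and immune lists, a set chosen after the values had been seen, it was 1.73 at E16.5, 0.98 at P1 and 0.22 at P5, on 115 and 382 CPM, 77.8 and 153 CPM, and 76.0 and 88.3 CPM. At P1 the ratio thus lay below a fold of 2 in the second set. The order of 4n above 2n held in each set, with the gap at P1 and E16.5 smaller than in all CMs. In both reduced sets the ratio from E16.5-2n to P5-2n CMs turned from 0.10 to -0.53 and -0.60, and that from P1-2n to P5-2n went from 0.58 to 0.01 and -0.03. How much of the remaining Actb belongs to CMs was not tested.

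**Figure D3:**
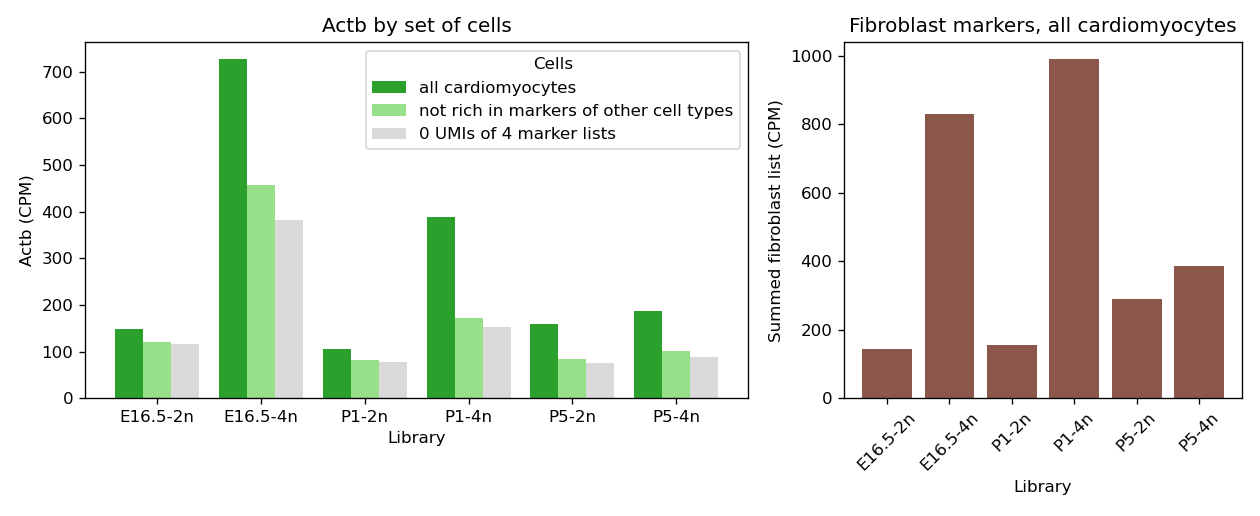
Left, Actb in CPM (vertical axis, from 0) by library in 3 sets of CMs: all CMs, CMs that are not marker-rich, and CMs with 0 UMIs of the fibroblast, endothelial, epicardial and immune lists. Right, the summed fibroblast list in CPM in all CMs, highest in P1-4n (989 CPM) and E16.5-4n (828 CPM). For E16.5-4n CMs Actb goes from 727 to 382 CPM over the sets and stays above the 115 CPM of E16.5-2n CMs.

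Actg1, cytoplasmic gamma-actin, was at 561 CPM (549 to 573) in E16.5-2n and 649 CPM (635 to 663) in E16.5-4n CMs. It was at 279.8 CPM and 374 CPM at P1 and at 205 CPM and 225 CPM at P5, 2n before 4n. In both ploidies the level was thus lower at each later age. The log2 ratio was -1.004 (-1.06 to -0.95) from E16.5 to P1 and -0.45 from P1 to P5 in 2n, and -0.80 (-0.84 to -0.75) and -0.73 in 4n CMs. Between ploidies it was 0.21 at E16.5, 0.42 at P1 and 0.13 at P5. Without marker-rich cells the ratio at E16.5 turned to -0.03, and that at P1 went to 0.09. The balance within the cytoplasmic pair differed between the sorts in all CMs. Actb held 20.9% of the UMIs of Actb and Actg1 in E16.5-2n but 52.8% in E16.5-4n CMs, 27.4% and 51.0% at P1, and 43.6% and 45.5% at P5. Without marker-rich cells Actb lay below Actg1 in each 4n library, at 457 against 527 CPM, 173 against 285 CPM and 102 against 186 CPM by age. In 2n CMs it was then at 120 against 540 CPM, 82.5 against 267 CPM and 83.1 against 171 CPM.

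Since UMIs count molecules at their 3′ ends, levels of the members were set side by side in CPM without scaling by length. Actc1 and then Acta2 came first in each library. In E16.5-2n CMs Actg1 came next, and Acta1 and Actb did not differ beyond their intervals. In E16.5-4n CMs Actb stood above Actg1, and in P1-4n CMs both had overlapping intervals. In the other 3 libraries the order was Actg1, Actb and Acta1. Actg2 was last in each. This order holds for all CMs and depends on marker-rich cells. Without them Acta1 stood above Actb at P5, at 128 against 83.1 CPM in 2n and 169.5 against 102 CPM in 4n CMs. Actb then lay below Actg1 in E16.5-4n (457 against 527 CPM) and in P1-4n CMs (173 against 285 CPM).

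Counted over the family, a member was called when its level differed at least 2-fold, and 5 of the 6 had enough UMIs in each comparison. From E16.5-2n to P1-2n CMs 0 were higher and 3 lower (Acta1, Acta2 and Actg1), where 1.97% of 9400 genes were higher and 12.1% lower. From E16.5-4n to P1-4n CMs 0 were higher and 1 lower (Acta2), against 2.89% and 11.7% of 9958 genes. The call of Actg1 in 2n CMs lay at the edge, at 2.01-fold, and Acta1 and Actb in 4n CMs were just short, at 1.89-fold and 1.87-fold.

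From P1-2n to P5-2n CMs 0 members were higher and 0 lower, against 3.07% and 1.96% of 9240 genes, with Acta1 just short at 1.96-fold. From P1-4n to P5-4n CMs 1 was higher (Acta1) and 1 lower (Actb), against 2.41% and 5.76% of 9766 genes. The call of Actb (log2 ratio -1.05) ended without marker-rich cells (-0.77) and in CMs with 0 UMIs of the 4 lists (-0.79), while that from E16.5-4n to P1-4n, just short in all CMs, passed a fold of 2 in both sets (-1.40 and -1.32). Comparisons that share a library, such as those into and out of P1, are not independent.

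Between 4n and 2n CMs 1 member was higher at E16.5 and 0 were lower, against 4.64% and 0.0208% of 9626 genes. At P1 1 was higher and 0 lower, against 5.19% and 0.0% of 9655 genes, and at P5 0 were higher and 0 lower, against 1.87% and 0.406% of 9356 genes. The member called at E16.5 and P1 was Actb in both. Over the whole span from E16.5 to P5, 0 members were higher and 2 lower in 2n CMs (Acta2 and Actg1), against 3.03% and 16.7% of 9508 genes. In 4n CMs 0 were higher and 3 lower (Acta2, Actb and Actg1), against 2.51% and 20.9% of 9604 genes. Under the median of ratios, 2 of the 6 calls between successive ages were left, Acta2 from E16.5-2n to P1-2n CMs (log2 ratio -1.09) and Acta1 from P1-4n to P5-4n CMs (1.99), and Acta1 from P1-2n to P5-2n CMs (1.07) was gained. Over the whole span this scaling ended the call of Acta2 in 4n CMs, from -1.11 to -0.58, put Acta1 in 4n CMs past 2-fold higher, from 0.87 to 1.40, and brought Actg1 to the edge in both ploidies. The share of all genes called under this scaling is not given here, so these counts stand without a background.

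Cells were then compared at a common depth, each thinned to 1000 UMIs, which left out 0 to 720 shallower CMs per library, most in P1-2n. Actc1 had a UMI in 99.0% to 99.9% of CMs, with medians of 8 to 12 UMIs. Acta2 had a UMI in 65.1%, 64.5%, 36.5%, 34.6%, 38.5% and 40.9% of CMs in the order of the libraries. Acta1 had a UMI in 8.05% and 6.30% of CMs of E16.5, in 3.97% and 3.22% of those of P1, and in 8.22% and 10.4% of those of P5. Without thinning the shares for Acta1 were 14.5%, 11.9%, 6.88%, 9.81%, 19.9% and 27.04%. The thinned share follows the order of the CPM, except that P5-2n stands slightly above E16.5-2n CMs. The unthinned share departs further, with P1-4n (median depth 3186 UMIs) above P1-2n CMs.

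As a background for Acta1, 0% to 5.88% of the 17 to 104 cells per library that failed the CM filter had a UMI, at median depths of 909 to 1450 UMIs. With so few cells these shares are loose (2.53% in E16.5-2n, interval 0.308% to 8.85%), and the thinned share of CMs lay within the interval of the failing cells in all 6 libraries. The share of cells alone therefore does not set CMs apart from these cells for Acta1. The failing cells were not thinned, and 68.0% to 88.5% of them had an Actc1 UMI (1049 to 5236 CPM). They are thus not a background free of CM genes. The level of Acta1 was lower in them, but on 0 to 5 UMIs per library, too few for a firm comparison. Actb had a UMI in 11.8%, 42.4%, 8.93%, 25.02%, 10.9% and 13.6% of thinned CMs, and in 27.4% to 94.1% of the failing cells. Actg1 had a UMI in 40.5%, 43.8%, 23.1%, 28.5%, 17.3% and 19.5% of thinned CMs. Actg2 had a UMI in 0.0273% to 0.337% of them.

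Spread over cells separated the isoforms further. The variance of UMIs per thinned cell was divided by their mean, a measure that is near 1 when cells differ by counting alone, and set beside the 20 genes of nearest mean. For Acta1 it was 3.16, 1.72, 3.26, 1.58, 2.10 and 1.98 in the order of the libraries, whereas the medians of the neighbouring genes were 1.00 to 1.02 and the highest single neighbour lay at 1.05 to 1.23. Acta1 exceeded each of its neighbours in all 6 libraries, more so in 2n than in 4n CMs at each age. Acta2 was at 1.60 to 2.16 and Actb at 1.36 to 2.85, the latter highest in E16.5-4n CMs. Actg1 was at 1.12 to 1.27, near the medians of its neighbours of 1.02 to 1.04.

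**Figure D4:**
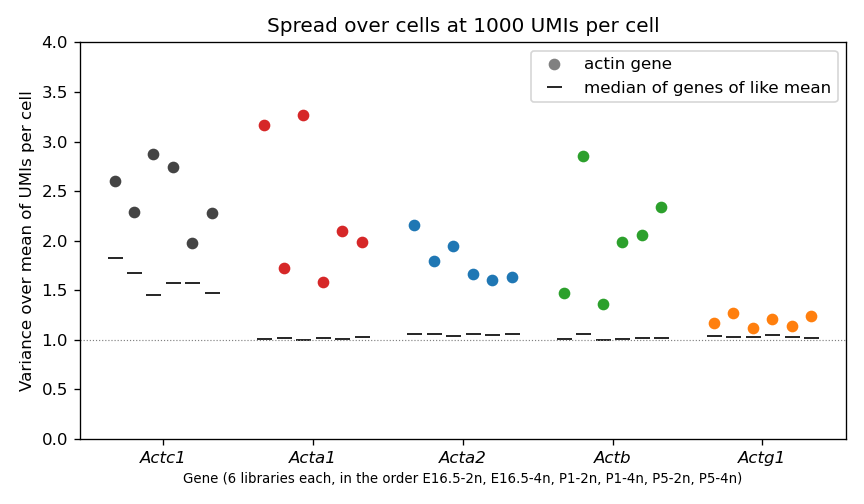
Variance over mean of UMIs per CM at 1000 UMIs per cell (vertical axis) for 5 actin genes (horizontal axis), with 6 points per gene, 1 per library, and a black dash for the median of genes of like mean. Acta1 reaches 3.26 in P1-2n CMs against a median of 1.00, and Actg1 stays between 1.12 and 1.27.

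A few cells carried a part of the Acta1 that was largest in E16.5-2n CMs. At 1000 UMIs per cell the largest counts were 17, 7, 15, 5, 9 and 7 UMIs in the 6 libraries. Cells with 1 UMI held 39.6% to 63.6% of the Acta1 UMIs of their library. Cells with at least 5 UMIs numbered 22, 3, 6, 2, 8 and 10, and held 21.4%, 4.58%, 15.5%, 5.13%, 10.0% and 9.95% of the Acta1 UMIs of their library. The 22 cells of E16.5-2n were 0.397% of its CMs. Together these cells had 0 or 1 UMI of the skeletal muscle list per library, but they are too few to compare. CMs with 1 Acta1 UMI had 18 such UMIs in 305 cells of E16.5-2n and 9 in 230 of E16.5-4n. CMs without Acta1 had 129 in 5092 and 108 in 4555, which is fewer per cell. P1-2n (5 in 199 against 67 in 6390) and P5-2n CMs (2 in 268 against 24 in 4040) went the same way. In P1-4n and P5-4n CMs it was the reverse, with 1 in 124 against 46 in 4599, and 1 in 280 against 22 in 3280. That reverse rests on 1 UMI in each library. The 22 cells of E16.5-2n had 11 UMIs of the mural list, more per cell than the 830 in the 5092 CMs without Acta1. The 3 cells of E16.5-4n had 12 of the fibroblast list. The part of these lists in Acta1 was not tested. In all 6 libraries the cells with at least 5 Acta1 UMIs had median depths of 1543.5 to 5579.5 UMIs before thinning. In CMs without Acta1 these depths were 1959.5 to 4607.5 UMIs.

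CMs with and without an Acta1 UMI were set side by side within each library at 1000 UMIs per cell, as a description, since the cells were chosen by Acta1. The natriuretic peptide genes Nppa and Nppb, also of the fetal programme, were taken with the actins, and Ankrd1, Cnn1, Myh6 and Myh7 were added after values had been seen. The cells with Acta1 were slightly deeper in 5 of 6 libraries (medians of 2614 against 2240.5 UMIs in E16.5-2n). Nppa was higher in them by log2 0.48, 0.54, 0.96, 1.16, 1.25 and 1.25 in the order of the libraries. Nppb was higher by 0.39 to 0.92, with an interval that includes 0 in P1-2n CMs.

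Of the other actins, Acta2 was higher in the cells with Acta1 in each library, by log2 0.63, 0.52, 0.44, 0.66, 0.43 and 0.34, and Actc1 by 0.13 to 0.29. For Actg1 all 6 intervals include 0, and for Actb the values ran from -0.52 to 0.35 with no common sign. The muscle actins thus went together over cells and the cytoplasmic ones did not follow them. Ankrd1, a cardiac ankyrin repeat protein of the sarcomere and nucleus, was higher by 0.81 and 0.75 at E16.5 and by 0.11 and 0.22 at P5. Its interval in P5-2n CMs includes 0 (-0.001 to 0.225). Cnn1, which is on the mural list, was at 0.67 to 2.09, but its interval includes 0 in each 4n library (-0.02 to 1.29 at E16.5). In P1-4n and P5-4n CMs the value rests on 2 Cnn1 UMIs in the cells with Acta1. For the myosin Myh7 all 6 intervals include 0, and Myh6 was at 0.01 to 0.49.

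**Figure D5:**
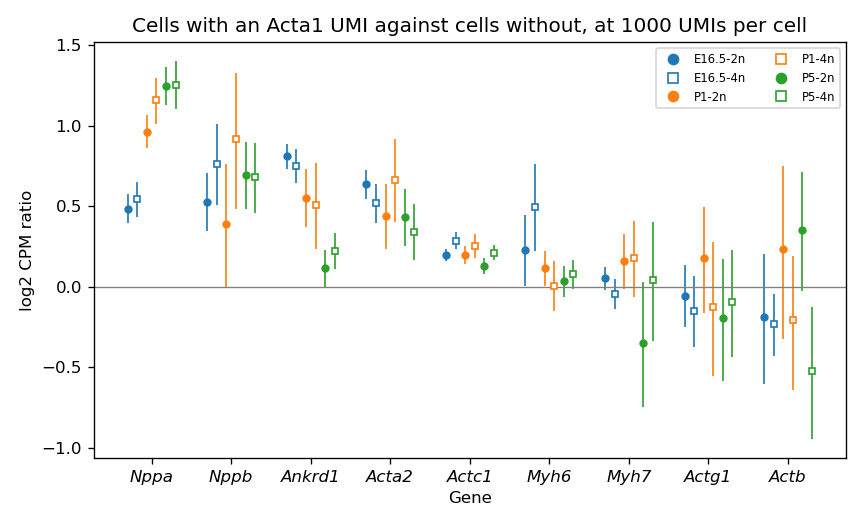
log2 ratio of CPM (vertical axis) between CMs with and without an Acta1 UMI at 1000 UMIs per cell for each gene (horizontal axis), with 1 point per library and bars for the 95% counting interval. Nppa, Nppb, Acta2 and Actc1 lie above 0 in all 6 libraries, and Actg1 and Myh7 have intervals that include 0.

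Over thinned CMs, Pearson correlations of UMIs within a library were 0.146 to 0.299 for Actc1 and Acta2, 0.0700 to 0.130 for Actc1 and Acta1, and 0.0492 to 0.0958 for Acta1 and Acta2. They were 0.0835 to 0.249 for Actb and Actg1 and -0.172 to -0.0180 for Actc1 and Actb. Spearman correlations were 0.126 to 0.282 for Actc1 and Acta2 and 0.0300 to 0.160 for Actb and Actg1. These are descriptions over 3661 to 6654 cells per library that share 1 library and 1 depth, and at such sparse counts they are weak.

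Cells were assigned to phases by CellCycleScoring, whose lists hold 0 of the 6 members. Scored within each library, G2/M cells made up 14.7%, 36.5%, 14.0%, 14.6%, 9.29% and 26.6% of CMs in the order of the libraries. Scored together, they made up 10.2%, 46.9%, 1.25%, 7.05%, 2.94% and 31.8%, so that the share, at P1 and in P5-2n CMs above all, depends on the scoring. Actc1 was lower in G2/M than in G1 CMs by log2 -0.41 and -0.15 at E16.5, -0.14 in P1-4n, and -0.35 and -0.32 at P5, and level in P1-2n CMs (0.00). Scored together, Actc1 was lower in G2/M in P1-2n CMs as well (-0.48, -0.55 to -0.40). Acta1 was lower in G2/M CMs in 5 of 6 libraries, by log2 -0.67 (2n) and -0.61 (4n) at E16.5, -0.45 in P1-4n CMs, and -0.50 (2n) and -1.27 (4n) at P5. In P5-4n CMs this was 83.3 CPM in G2/M against 201 CPM in G1. P1-2n CMs differed, with 73.8 CPM in G2/M against 59.96 CPM in G1 (log2 0.30), and this value turned to -2.84 (-5.89 to -0.99) when the libraries were scored together, on 2 Acta1 UMIs in the 92 G2/M cells then left.

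Actb differed between phases, often together with markers of other cells. In P5-2n CMs it was at 436 CPM in G2/M and 126 CPM in G1, while the fibroblast list was at 798 CPM and 277 CPM. In P5-4n CMs it was at 406 CPM in S phase and 170.2 CPM in G1, with the fibroblast list at 873 CPM and 343 CPM. In E16.5-4n CMs the direction was the opposite, with Actb at 465 CPM in G2/M and 878 CPM in G1 and the fibroblast list at 252 CPM and 1214 CPM. Other contrasts ran the other way. In P1-4n CMs Actb was at 470 CPM in G2/M and 341 CPM in G1, with the fibroblast list at 885 CPM and 937 CPM. In E16.5-2n CMs it was at 121 CPM in S phase and 139 CPM in G1, with the fibroblast list at 135 CPM and 106 CPM. In P5-2n CMs it was at 135 CPM in S phase, close to G1, with the fibroblast list at 151 CPM. Some of these contrasts depend on the scoring. With the libraries scored together, Actb in P1-4n CMs was at 367 CPM in G2/M and 374 CPM in G1 (log2 -0.03, -0.15 to 0.09). In P5-2n CMs it was then at 162 CPM in S phase and 137 CPM in G1 (log2 0.24, 0.13 to 0.36). The part of markers of other cells in the level of Actb was not tested. Actg1 was higher in G2/M than in G1 of P5-2n CMs (350.3 against 190.3 CPM) and lower in E16.5-4n CMs (578 against 709 CPM).

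For each member the 3 genes with the most similar course over the 6 libraries were taken from 5370 genes with at least 10 CPM in every library, by the root mean square difference of centred log2 CPM. For Acta1 these were Ankrd1 (0.256), Nppb (0.267), the gene of brain natriuretic peptide, and Fam78a (0.333). Ankrd1 went from 2297 and 1753 CPM at E16.5 to 847 and 693 CPM at P1 and 1886 and 1764 CPM at P5, and Nppb from 493 and 295 CPM to 208 and 215 CPM and 429.98 and 393 CPM. Both thus shared the low point of Acta1 at P1.

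For Acta2 the nearest genes were Fam162a (0.0803), Calr (0.0932), an endoplasmic reticulum chaperone, and Ppp1r3c (0.0980). For Actb they were Tm4sf1 (0.120), Id3 (0.235) and Igfbp4 (0.292). Tm4sf1 was at 18.1 and 83.1 CPM at E16.5, 12.9 and 56.7 CPM at P1, and 20.1 and 21.3 CPM at P5, 2n before 4n. For Actg1 they were Coro1c (0.0849), an actin-binding coronin, Vcam1 (0.0941) and Ing2 (0.105), and for Actc1 Cxx1a (0.0596), Narf (0.0616) and Vdac1 (0.0621), a channel of the outer mitochondrial membrane. Likeness over 6 libraries is a description, and Actg2 was too low to compare.

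The genes that work with actin were described from E16.5 to P5 by 4 lists, beside all genes, of which 3.03% were higher and 16.7% lower in 2n, and 2.51% and 20.9% in 4n CMs, with medians over all genes of -0.45 and -0.51. Of 24 thin filament partners, crosslinkers and end-binding genes 21 had enough UMIs. In 2n CMs 1 was higher and 1 lower, and in 4n CMs 1 was higher and 4 lower, with medians of -0.49 and -0.37. Xirp2, a protein of the intercalated disc and Z-disc that binds actin, went from 3.08 to 44.2 CPM in 2n (log2 ratio 3.85) and from 3.44 to 45.5 CPM in 4n CMs (3.72). Tpm1, the main tropomyosin of the sarcomere, went from 9018 to 12263 CPM and from 7149.9 to 10899 CPM, while Tpm3, a cytoskeletal and slow muscle tropomyosin, was lower (-1.003 and -1.43).

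Of 31 genes of actin monomer binding and turnover 29 had enough UMIs. In 2n CMs 0 were higher and 10 lower, and in 4n CMs 1 was higher (Twf2) and 8 lower, with medians of -0.76 and -0.71. The genes lower past 2-fold in both ploidies with the largest folds were Gsn, which severs filaments (log2 ratio -2.35 and -2.04, from 305 to 59.8 CPM in 2n), Arpc1b, a subunit of the Arp2/3 complex that nucleates branches (-1.82 and -2.03), Cfl1, the non-muscle cofilin (-1.44 and -1.65), Twf1, a twinfilin (-1.48 and -1.42), and Coro1c (-1.41 and -1.42). Tmsb4x, which holds actin monomers in reserve and was the most abundant of the list, went from 2311 to 1016 CPM and from 2613 to 1019 CPM. The medians of this list lay below those of all genes in both ploidies, and Actg1 was lower still (-1.45 and -1.53), while Actc1 was at -0.32 and 0.00.

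Of 21 genes for SRF, its cofactors and targets 20 had enough UMIs. In 2n CMs 1 was higher and 8 lower, and in 4n CMs 1 was higher and 9 lower, with medians of -0.40 and -0.71. Cnn1 was lower by log2 -3.68 and -4.15, from 76.4 to 5.97 CPM and from 54.9 to 3.10 CPM, alongside Cnn2 (-2.22 and -2.04), Tagln (-2.08 and -1.88), Csrp1 (-1.83 and -1.70) and the immediate early gene Egr1 (-1.78 and -1.72). The first 4 are actin-binding or cytoskeletal genes of smooth muscle. Smtn, smoothelin, was higher (1.73 and 1.16), and Csrp3, the muscle LIM protein of CMs and the most abundant of the list, was at -0.41 and -0.31. The steep part of the course of Cnn1 lay before P1, as did that of Acta2.

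Of 14 genes of actin folding, for the chaperonin CCT and for prefoldin, 13 were found and had enough UMIs. In 2n CMs 0 were higher and 5 lower (Cct2, Cct3, Cct4, Cct5 and Cct7), and in 4n CMs 0 were higher and 1 lower (Cct5, -1.08), with medians of -0.84 and -0.58. The most abundant, Pfdn5, was level (-0.07 and 0.04).

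Between ploidies the lists differed by few genes. In 4n against 2n CMs at E16.5 Tpm4 and Tmod3 of the thin filament list and Tagln2 of the SRF list were higher, and at P1 these and Flna and Tagln were. That is 2 of 20 and 1 of 20 genes compared at E16.5, and 3 of 21 and 2 of 20 at P1, against the 4.64% and 5.19% of all genes. These calls fell in the libraries with the highest fibroblast sums, E16.5-4n and P1-4n (828 and 989 CPM), where 22.3% and 33.6% of CMs were marker-rich, and the part of other cells in them was not tested. At P5 0 genes of the 4 lists were called in either direction. The turnover and folding lists had 0 calls between ploidies at each age.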

How the data were processed

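The authors counted reads of droplet-based 3′ libraries with Cell Ranger, which aligns with STAR, on mm10/GRCm38, as the submitters' processing notes name them (with Seurat 2.3.0), and deposited the counts of UMIs for each gene in each cell, not normalized. Of 2 further deposited files, a list of symbols and a table of the authors' own comparison (fold changes, shares of cells and p-values), neither was used. The members and lists were chosen with earlier results of these data known. CMs were cells with at least 1 UMI of each of Tnni3, Tnnt2 and Tnnc1, since Actc1, which the study's filter also asks for, is a member, and its threshold is not given in the sources used here. The UMIs of a gene in the CMs of a library were summed and scaled to 1000000 UMIs in all (CPM). Ratios carry the exact interval of the binomial split, levels the exact Poisson interval and shares the Clopper-Pearson interval, at the 95% level. Genes with at least 100 UMIs in both libraries together were compared, and a fold of 2 or more was a call. The precision follows from 13075770 or more UMIs per library. No tests were made, with 1 library per condition.

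Cells were thinned to 1000 UMIs, or to 2000 as an alternative, without the shallower cells. Phases were assigned per library with CellCycleScoring (Seurat 5.3.0, R 4.3.3), with 42 of 43 S and 54 of 54 G2/M genes. Named genes of each list passed 2-fold in the same direction in both ploidies from E16.5 to P5, at most 5 per direction, with the most abundant gene. List gene Cct6a was not found under that symbol. The ratios and intervals were tried on simulated counts that held counting error alone, the error that the intervals assume. That trial cannot show how they do under the wider spread over cells seen for Acta1 and Actb. Python 3.11.15, numpy 2.4.6 and scipy 1.17.1 were used. Alternatives were other CM filters, no marker-rich cells, no shared barcodes, other depths, means over cells, G1 cells, other scalings and a minimum of 20 UMIs. Sequences came from GENCODE and RefSeq tables of the same build.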

Additional observations from a re-analysis of the deposited data

Results flagged for a closer look

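Effects that went in opposite directions in a pair of groups are listed here, and none of these differences was tested, with 1 library in each condition. From E16.5 to P5 the log2 ratio of Acta1 was -0.31 in 2n and 0.87 in 4n CMs, a difference of -1.18, and the 4n to 2n ratio of Acta1 at E16.5 (-0.81) and P5 (0.37) differs by the same -1.18. The 4n to 2n ratio of Acta1 at P1 (-0.45) and P5 (0.37) differed by -0.82. For Acta2, the ratio from P1 to P5 was -0.05 in 2n and 0.17 in 4n CMs, a difference of -0.23. The 4n to 2n ratio of Acta2 differed by -0.37 between E16.5 (-0.28) and P5 (0.09), and by -0.23 between P1 (-0.13) and P5. For Actb, the ratio from P1 to P5 was 0.58 in 2n and -1.05 in 4n CMs, a difference of 1.64. From E16.5 to P5 the ratio of Actb was 0.10 in 2n and -1.95 in 4n CMs, a difference of 2.05. The opposite directions of Actb rest on the 2n values, which were -0.53 and -0.60 from E16.5 to P5 without marker-rich cells and in CMs with 0 UMIs of the fibroblast, endothelial, epicardial and immune lists, and under the median of ratios the 2n values of Acta1 from E16.5 to P5 (0.14) and of Acta2 from P1 to P5 (0.05) had the sign of the 4n values.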

How the results depend on the processing

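Of the 45 log2 ratios of members, leaving out shared barcodes or taking all deposited cells changed 0 signs, and the largest shifts were 0.03 and 0.04. By largest shift, marker-rich cells (0.81 without them), the scaling (0.53 with the median of ratios) and the phase (0.46 in G1 cells) mattered most. Depth mattered as well, with largest shifts of 0.37 and 0.23 when cells were thinned to 1000 and 2000 UMIs, and it limits Actg2. The share of actin UMIs that were Acta1 moved by more than its interval as follows. In E16.5-2n CMs (1.03%) it was 0.905% without marker-rich cells, 0.938% and 1.12% when thinned to 1000 and 2000 UMIs, and 0.886% as a mean over cells. In E16.5-4n CMs (0.738%) it was 0.691% as a mean over cells and 0.827% in G1 cells. In P1-2n CMs (0.621%) it was 0.563% at 2000 UMIs and 0.581% in G1 cells. In P1-4n CMs (0.467%) it was 0.438% without marker-rich cells, 0.421% and 0.432% at 1000 and 2000 UMIs, and 0.405% in cells with 0 UMIs of 4 marker lists, a set added after seeing the data. In P5-2n CMs (1.13%) it was 1.202% in G1 cells, and in P5-4n CMs (1.57%) it was 1.66% in cells with 0 UMIs of the 4 lists, 1.45% as a mean over cells and 1.81% in G1 cells. Calls of members between successive ages numbered 6, against 10 in G1 cells and 3 with the median of ratios, 1 of them not among the 6. Calls between ploidies numbered 2, against 4 with a minimum of 20 UMIs and 1 in cells with 0 UMIs of the 4 lists. The shares of all genes called under these other settings are not given here, so the counts of calls cannot be set beside a background. A set of marker-rich cells without the mural list, also added after seeing the data, moved none of these values. The cause of these moves was not tested. The 2n and 4n libraries of an age came from the same litters, and a fit of ploidy with age as a term, over the 3 pairs, was not run.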
